A study of Mus musculus with 16 samples.

Results

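The genes described here encode the machinery that makes protein in the cytosol: ribosomal proteins, translation initiation factors and translation elongation factors. Members were chosen by gene symbol (symbols starting Rpl or Rps with a number, Rplp, Eif1 to Eif6, Eef1 or Eef2). Of 85 matching symbols, 17 were dropped. Among them were ribosomal protein kinases, pseudogenes, Eif4e with some of its partners, its binding proteins Eif4ebp1 and Eif4ebp2, and the eIF2 kinases Eif2ak3 and Eif2ak4. This left 68 of the 16475 genes measured. By role they were 6 small subunit proteins and 12 large subunit proteins (together the 18 ribosomal proteins), 5 paralogs of ribosomal proteins, 36 initiation factors and 5 elongation factors. The other 4 were matched by symbol only: 3 methyltransferases of elongation factor eEF1A, and Rps19bp1, whose product binds a ribosomal protein. Initiation factors here are all members with a symbol starting Eif. They therefore include the eIF2 kinases Eif2ak1 and Eif2ak2, the eIF4E repressor Eif4ebp3 and the exon junction helicase Eif4a3. Eif1ad was grouped with the start codon factors by its symbol only. These kinases and this repressor stayed although related genes were dropped.

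A ribosome is built from a small subunit, which reads the mRNA, and a large subunit, which joins the amino acids. Initiation factors bring the first tRNA and the small subunit to the mRNA (eIF2, eIF3, the eIF4 group), find the start codon (eIF1, eIF1A, eIF5) and join the subunits (eIF5B), and elongation factors deliver tRNAs (eEF1) and move the ribosome on (eEF2). Most ribosomal protein mRNAs, and those of several factors, begin with a C followed by a run of pyrimidines, the terminal oligopyrimidine tract. Through it their own translation depends on growth signals that pass through mTOR, and such mRNAs are known to leave polysomes in resting lymphocytes and to return to them on activation.

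The cells were CD4+ T cells from lymph nodes and spleens of female C57BL/6 mice aged 6 to 12 weeks with a GFP-Foxp3 reporter knock-in, an allele that all groups shared. They were sorted on GFP into Foxp3+ cells, which include regulatory T cells, and Foxp3- cells, so that each subset is what the reporter marks. Cells were taken after 36 h of activation in culture, on plates coated with CD3 and CD28 antibodies at 5 µg/ml and with 100 U/ml human IL-2, or directly ex vivo. From each, polysome-associated mRNA (at least 3 ribosomes) and cytosolic mRNA were put on Affymetrix arrays. The 8 groups were activated Foxp3+ polysome, activated Foxp3+ cytosolic, activated Foxp3- polysome, activated Foxp3- cytosolic, and the same 4 of ex vivo cells, with 2 arrays in each. Cycloheximide (100 µg/ml), which holds ribosomes on mRNA, was used for all groups, in the buffers and media of ex vivo cells and, for activated cells, in the medium when culture ended. Each ex vivo sample combined RNA of 2 experiments. Arrays are numbered 1 to 16. By their names they fall into 3 series (activated Foxp3+ cells, activated Foxp3- cells, and ex vivo cells of both subsets), so that activation and array series, and in activated cells subset and array series, cannot be told apart.

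Values are log2 expression as the authors normalized it, on which 1 unit is a doubling. Levels of different genes are not compared, since each probe set has its own response. Foxp3 averaged 10.09 to 10.53 in the 4 Foxp3+ groups and 3.75 to 6.05 in the Foxp3- groups, and Cd3e averaged 10.08 to 11.78 in all 8. Other T cell genes varied more: Cd3g averaged 9.54 to 11.87 and Cd4 7.09 to 9.88. The activated Foxp3+ polysome arrays of Cd3g lay apart, at 8.70 and 10.85. So did its activated Foxp3- arrays, at 9.90 and 11.29 in polysomes and 8.69 and 10.40 in cytosolic RNA. The arrays of a group correlated at 0.887 to 0.992, lowest in activated Foxp3+ cells, whose interquartile range was also narrower (2.62 to 2.90, against 3.03 to 3.54 on the other arrays). The 3′ minus 5′ difference of the actin control, a sign of RNA quality, averaged −0.52 to −0.28 in activated cells, 4.31 and 4.40 in ex vivo Foxp3+ polysome and cytosolic RNA, and 0.83 and 1.12 in ex vivo Foxp3- RNA. Of the 68 genes, 60 had a mean above the median gene, 46 were above the lowest array median (4.845) on all arrays, and 2 (Eif2s3y, a Y-linked eIF2 subunit, and Eif2ak2) were below it on all arrays. Ribosomal protein genes have many near-identical pseudogene copies, and how far the probe sets also take up such copies was not examined.

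The starts of 6 of these genes are shown because they carry, at the transcription start annotated by RefSeq (build GRCm38.p6), the feature that defines the tract class: a C followed by at least 4 pyrimidines (C or T), read on the strand of the gene. Each line gives 15 bases before the start and the first 15 transcribed bases, with the run from the start in capitals.
Rps6, chr4:86857353-86857382, minus strand: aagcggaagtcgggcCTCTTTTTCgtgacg
Rps15a, chr7:118116133-118116162, minus strand: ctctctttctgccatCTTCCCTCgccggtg
Rpl14, chr9:120571502-120571531, plus strand: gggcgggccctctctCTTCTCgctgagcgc
Rpl15, chr14:18270972-18271001, minus strand: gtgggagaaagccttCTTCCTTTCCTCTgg
Rplp2, chr7:141447636-141447665, plus strand: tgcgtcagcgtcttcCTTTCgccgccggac
Eif3f, chr7:108934400-108934429, plus strand: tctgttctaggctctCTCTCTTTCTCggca
Of the 68 genes, 54 had an entry in the start table, and 6 of these (11.1%) held the run at the annotated start, as did 2.87% of 12585 measured genes and 3.01% of all 27025 starts in the table. Among the 18 ribosomal proteins it was 5 of the 14 with an entry (35.7%), and among the other members 1 of 40 (2.5%). When the run could begin up to 5 bases either side of the start, the shares were 33.3% of the members, 57.1% of the ribosomal proteins and 23.1% of measured genes. These are matches to annotated starts, and where transcription begins in these cells was not measured.

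Activation was examined first, in each subset and RNA fraction. A gene was counted as called, and is said to have risen or fallen, where limma's adjusted p (Benjamini-Hochberg over all 16475 genes) was under 0.05 for activation. Members were called in both directions, and the balance differed between subsets, fractions and roles. Of the 68 members, 53 were called in at least 1 of the 4 activation comparisons (subset by fraction), and 54.6% of all genes were. Eif5, Eif2s2, Eif3a and Eif4b rose in all 4, and Rps14, Rpl8, Rpl13a, Rpl22 and Eif3f fell in all 4. These are 4 and 5 of 68, beside 4.5% and 5.44% of all genes.

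In polysome-associated mRNA of Foxp3+ cells, 17 members rose (14.7% of all genes did) and 15 fell (14.6% of all genes). The median difference was 0.54 over the members and 0.09 over all genes. Ribosomal proteins and initiation factors went apart: 2 of the 18 ribosomal proteins rose and 8 fell (median −0.42), whereas 10 of 36 initiation factors rose and 4 fell (median 0.63). Of the 5 paralogs of ribosomal proteins 1 rose and 2 fell (median −0.73). After cyclic loess scaling 25 members rose and 11 fell, with 3 ribosomal proteins higher and 5 lower. With only the arrays of the groups compared in the fit 12 members were called in place of 32, and without array 2 it was 19.

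In cytosolic mRNA of Foxp3+ cells the balance was the other way, with 9 members higher (16.9% of all genes) and 20 lower (14.4%), and a member median of −0.17 against 0.13 for all genes. This direction depended on scaling, since cyclic loess gave 16 higher and 12 lower with a median of 0.21. Of the ribosomal proteins 1 rose and 7 fell (median −0.64), and 5 rose and 5 fell after cyclic loess (median −0.11). Initiation factors were divided, 6 higher and 8 lower (median −0.11), and after cyclic loess 8 were higher and 4 lower (median 0.27).

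In Foxp3- cells, 24 members rose in polysome-associated mRNA (14.1% of all genes) and 10 fell (16.4%), with a median of 0.53 against 0.02 for all genes. Among them 15 of 36 initiation factors rose and 4 fell, and the ribosomal proteins were divided, 5 higher and 4 lower (median 0.30). In cytosolic mRNA 14 members rose (13.6% of all genes) and 9 fell (12.5%), with a median of 0.16 against 0.11. Here 9 initiation factors rose and 1 fell, and 2 ribosomal proteins rose and 6 fell (1 and 6 after centring on array medians). Leaving out array 8 reduced the polysome count of 34 to 21, and leaving out array 3 the cytosolic count of 23 to 10.

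Eif3a, the large scaffold subunit of eIF3, rose most among the factors. In polysome-associated mRNA it had 7.50 and 8.62 on the activated Foxp3+ arrays, against 4.97 and 5.05 on the ex vivo ones. In Foxp3- polysomes it had 10.55 and 10.76 after activation, against 5.73 and 5.57 ex vivo. Every activated array thus lay above every ex vivo array, with differences of 3.05 ± 0.40 in Foxp3+ and 5.00 ± 0.40 in Foxp3- cells (limma SE, n = 2 arrays each, adjusted p = 0.000325 and 8.91e-06). The cytosolic differences were 3.20 ± 0.40 and 3.54 ± 0.40 (adjusted p = 0.000248 and 0.000126). Other eIF3 subunits went different ways. Eif3e and Eif3h, which are regulatory subunits, rose in polysomes of Foxp3+ cells (2.64 ± 0.50 and 1.68 ± 0.38) and of Foxp3- cells (1.77 ± 0.50 and 1.71 ± 0.38). Eif3f fell in both (−2.03 ± 0.24 and −1.76 ± 0.24), and Eif3b, Eif3k and Eif3l were called in none of the 4 comparisons.

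**Figure D1:**
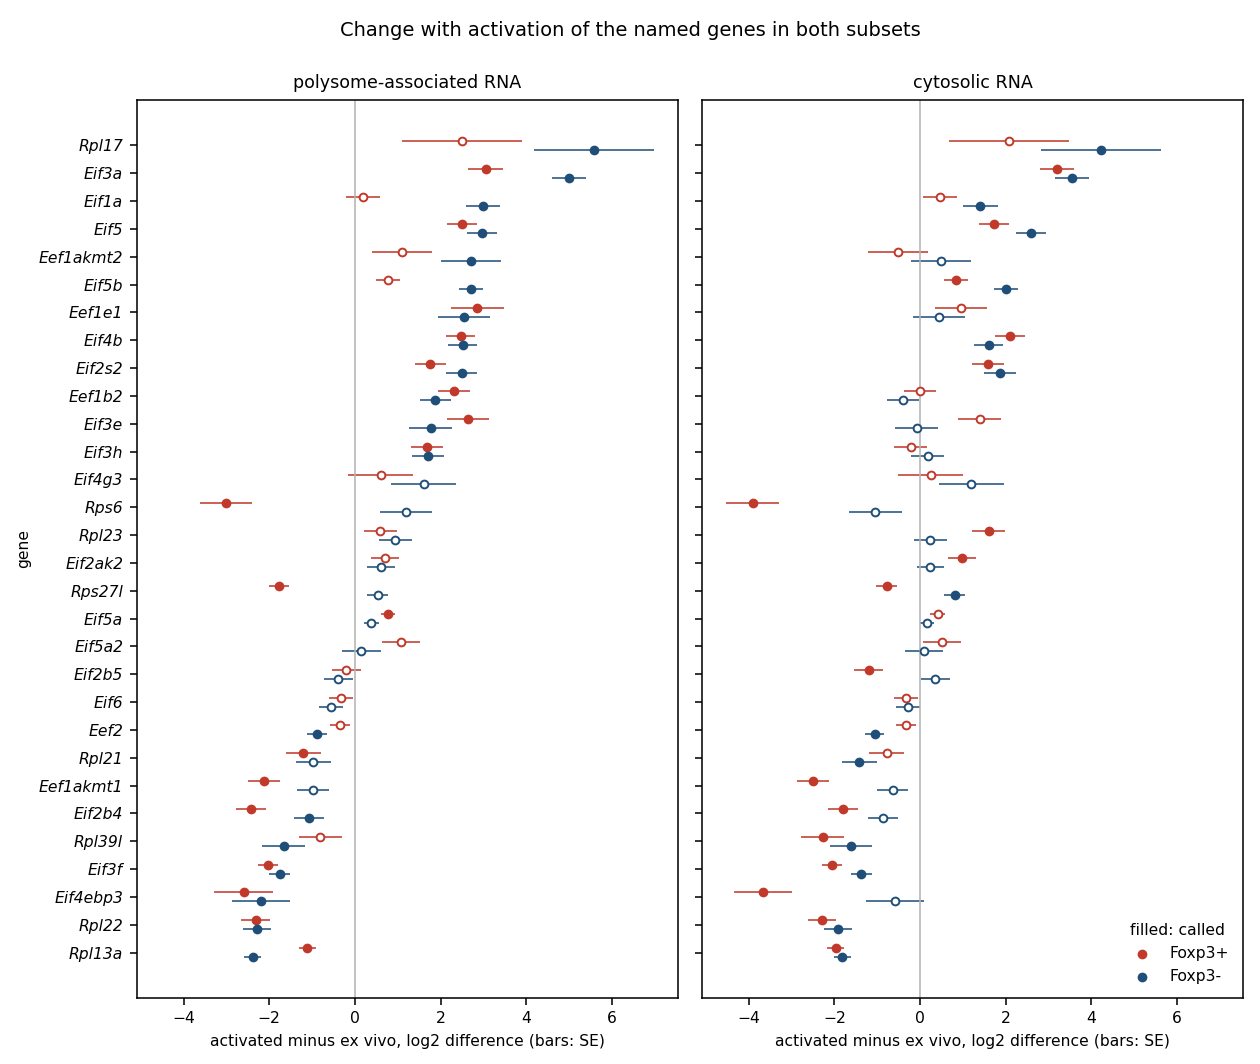
Activated minus ex vivo log2 difference of the genes named by rule, in polysome-associated RNA (left panel) and cytosolic RNA (right panel), for Foxp3+ cells (red) and Foxp3- cells (blue), with bars for limma's standard error and filled points for calls at an adjusted p under 0.05. Eif3a, Eif5, Eif4b and Eif2s2 lie right of 0 in all 4 comparisons and Rpl22, Rpl13a and Eif3f left of 0, and Rps6 is at −3.01 in Foxp3+ and 1.20 in Foxp3- polysomes.

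Of the start codon and subunit joining factors, Eif5, which triggers GTP hydrolysis by eIF2, had 9.78 and 9.07 on activated Foxp3+ polysome arrays, against 7.22 and 6.65 ex vivo. It rose by 2.49 ± 0.35 there and by 2.97 ± 0.35 in Foxp3- polysomes (adjusted p = 0.000479 and 9.35e-05). Eif5b, the GTPase that joins the subunits, rose by 2.70 ± 0.28 in Foxp3- polysomes (adjusted p = 5.02e-05), and its difference of 0.77 in Foxp3+ polysomes did not pass. Eif1a, one of the genes for eIF1A, rose by 2.99 ± 0.40 in Foxp3- polysomes (adjusted p = 0.000226) and was at 0.19 in Foxp3+ polysomes, where it was not called. Eif6, which keeps free large subunits from joining, was called in neither subset or fraction.

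Among the eIF2 and eIF4 factors, Eif2s2, the beta subunit of eIF2, rose by 1.76 ± 0.37 in Foxp3+ and 2.49 ± 0.37 in Foxp3- polysomes (adjusted p = 0.00541 and 0.000516). Eif4b, a helper of the mRNA-unwinding helicase, rose by 2.47 ± 0.34 and 2.52 ± 0.34 (adjusted p = 0.000446 and 0.000246). Eif2b4, a subunit of the exchange factor that recharges eIF2, fell by 2.43 ± 0.35 and 1.08 ± 0.35 in these polysomes (adjusted p = 0.000588 and 0.0373). Eif4ebp3, whose product represses the cap-binding factor eIF4E, had 5.07 and 7.11 on activated Foxp3+ polysome arrays, against 8.42 and 8.96 ex vivo. It fell by 2.60 ± 0.68 there and by 3.66 ± 0.68 in the cytosolic RNA of Foxp3+ cells (adjusted p = 0.0149 and 0.00241). In Foxp3- cells it fell by 2.19 ± 0.68 in polysomes (adjusted p = 0.0302), and its cytosolic difference of −0.59 did not pass. Eif4g3, Eif5a2 and Eif2b5 were called in at most 1 of the 4 comparisons.

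Of 5 elongation factors, 3 rose in polysomes of Foxp3+ cells and 3 in those of Foxp3- cells (14.7% and 14.1% of all genes). In cytosolic RNA 0 and 1 rose (16.9% and 13.6% of all genes). None passed the test of a change in polysome share with activation, given below. Eef1b2, a subunit of the exchange factor of eEF1A, had 12.99 and 13.22 on activated Foxp3+ polysome arrays, against 11.07 and 10.51 ex vivo. Its polysome differences were 2.31 ± 0.37 in Foxp3+ and 1.88 ± 0.37 in Foxp3- cells (adjusted p = 0.00117 and 0.0031). The cytosolic ones were 0.00 and −0.39, and neither passed. Eef1d, another subunit of that factor, rose by 1.04 ± 0.20 and 1.32 ± 0.20 in polysomes (adjusted p = 0.00361 and 0.000629). It also rose in cytosolic RNA of Foxp3- cells (1.06 ± 0.20, adjusted p = 0.00349). Eef1e1, counted here by its symbol and a protein of the complex of tRNA synthetases, rose in polysomes by 2.86 ± 0.61 and 2.55 ± 0.61 (adjusted p = 0.0056 and 0.00881). Its ex vivo Foxp3+ polysome arrays were far apart (4.38 and 6.37). Eef2, which moves the ribosome along the mRNA, fell in Foxp3- cells (−0.88 ± 0.23 in polysomes and −1.06 ± 0.23 in cytosolic RNA), and its differences of −0.35 and −0.33 in Foxp3+ cells did not pass.

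Among the ribosomal proteins, Rpl22, which is known to be needed for αβ T cell development in mice, fell in both subsets. It had 5.90 and 6.09 on activated Foxp3+ polysome arrays, against 8.47 and 8.16 ex vivo. In cytosolic RNA of Foxp3- cells it had 7.47 and 7.49 after activation, against 9.37 and 9.41 ex vivo. The arrays did not overlap, and the differences were −2.32 ± 0.33 and −1.91 ± 0.33 (adjusted p = 0.000511 and 0.00166). Rpl13a, a large subunit protein, fell by 1.11 ± 0.20 in Foxp3+ and 2.39 ± 0.20 in Foxp3- polysomes (adjusted p = 0.00201 and 1.1e-05). Rps14 and Rpl8 fell by smaller steps, with differences of −1.31 to −0.76 over the 4 comparisons. Rpl4 rose in polysomes by 1.53 ± 0.38 and 1.63 ± 0.38, and was not called in cytosolic RNA of either subset.

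Rps6, the small subunit protein that S6 kinases phosphorylate downstream of mTOR, was the ribosomal protein with the most different course in the subsets. On activated Foxp3+ arrays it had 3.86 and 4.20 in polysomes, against 7.70 and 6.37 ex vivo. In cytosolic RNA of these cells it had 6.43 and 4.84, against 9.44 and 9.65 ex vivo. It fell by 3.01 ± 0.61 and 3.91 ± 0.61 (adjusted p = 0.00435 and 0.00099), to a polysome level under the array medians. In Foxp3- polysomes it had 8.96 and 9.24 after activation, against 8.64 and 7.15 ex vivo, which did not pass (1.20 ± 0.61). Rpl17, a large subunit protein, rose in Foxp3- polysomes by 5.57 ± 1.40 (adjusted p = 0.0114). In Foxp3+ cells its activated cytosolic arrays disagreed (11.40 and 5.16), and no call was made.

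**Figure D2:**
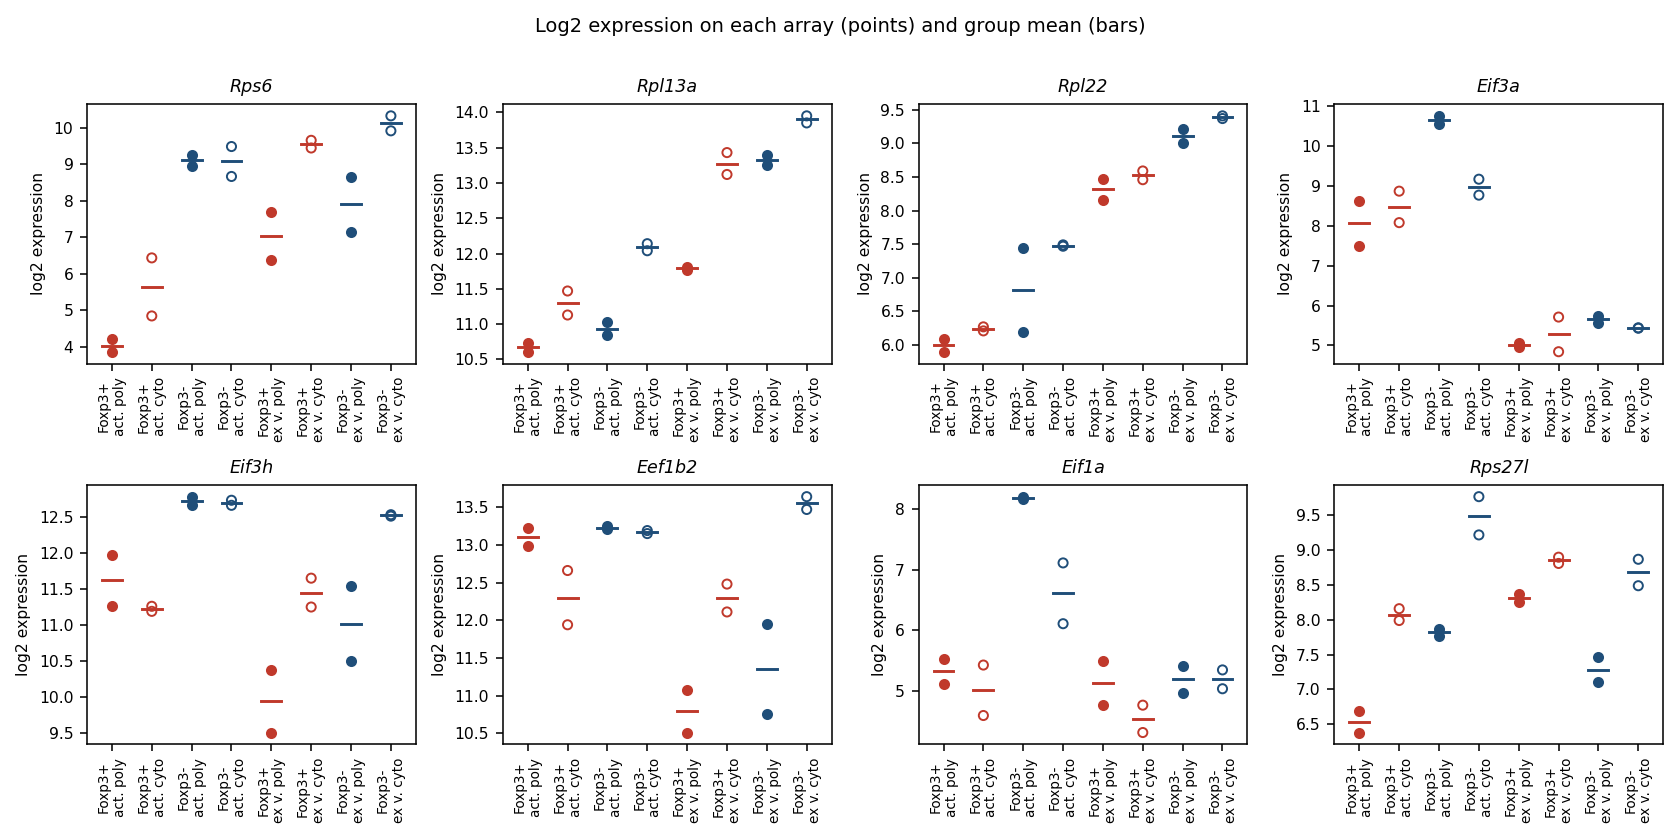
Log2 expression of 8 genes on each of the 16 arrays (points; filled for polysome-associated RNA, open for cytosolic RNA) with the group mean as a bar, activated groups left of ex vivo groups, Foxp3+ in red and Foxp3- in blue. Rps6 is at 3.86 and 4.20 on the activated Foxp3+ polysome arrays and at 8.96 and 9.24 on the activated Foxp3- ones, and Eif3a is high only in activated groups.

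Paralogs of ribosomal proteins and the methyltransferases moved less uniformly. Rps27l, a p53-responsive paralog of Rps27, fell in Foxp3+ cells (−1.77 ± 0.24 in polysomes and −0.78 ± 0.24 in cytosolic RNA) and rose in cytosolic RNA of Foxp3- cells (0.81 ± 0.24, adjusted p = 0.0311). Rpl39l, a paralog of Rpl39, fell in 3 of the 4 comparisons. These calls were lost in 2 (Foxp3+ cytosolic), 3 (Foxp3- polysome) and 7 (Foxp3- cytosolic) of 20 settings. Its activated arrays, at 3.41 to 4.76, all lay below the lowest array median (4.845). Eef1akmt1, which methylates eEF1A, fell in Foxp3+ cells by the test (−2.13 ± 0.37 and −2.49 ± 0.37) and in Foxp3- cells was not called, and the difference between subsets in this response did not pass.

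Other features of the arrays moved with activation as well. The summed level of 5 measured B cell markers was 6.00 to 7.83 on activated arrays and 8.48 to 9.27 on ex vivo arrays, and 2 of the 5 lay below the lowest array median on every array. The summed level of 6 stromal and endothelial markers was 6.74 to 8.62 on activated and 6.29 to 6.80 on ex vivo arrays, and 2 of these 6 lay below that median on every array. For 6 T cell markers the summed level was 13.06 to 13.73 on activated and 13.80 to 14.08 on ex vivo arrays. Such a sum mostly follows the genes with the strongest signal, and singly these 6 went both ways. In Foxp3+ cytosolic RNA 3 rose and 2 fell (16.9% and 14.4% of all genes), with a median of 1.35. In Foxp3- cytosolic RNA 1 rose and 2 fell (13.6% and 12.5%), with a median of −0.73. In polysomes 2 rose and 2 fell in Foxp3+ (14.7% and 14.6%) and in Foxp3- cells (14.1% and 16.4%). The actin difference given above moved with activation most in Foxp3+ cells. The part of these features, and of the array series, in the activation results was not tested. Since the same amount of signal is shared out on each array, fewer cells of a type and less RNA per cell cannot be told apart.

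The comparison of the subsets asked which of these genes Foxp3+ and Foxp3- cells express differently, and used an adjusted p under 0.15, the threshold that the study's methods give for activated cells, applied here to ex vivo cells too. After activation nearly all members that passed were lower in Foxp3+ cells, while 35 of 68 did not pass in polysomes and 29 did not in cytosolic mRNA. In polysome-associated mRNA 1 member was higher (18.7% of all genes) and 32 were lower (13.7%), and in cytosolic mRNA 2 were higher (13.8%) and 37 lower (12.2%). The member medians were −0.60 and −0.88, whereas the medians of all genes were 0.20 and 0.13, so that relative to the typical gene the members lay lower still. In both fractions 24 members were lower, beside 5.52% of all genes, and none was higher in both, beside 5% of all genes.

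The direction of the member calls was the same under each scaling tried, but the counts were not. Cyclic loess left 18 lower and none higher in cytosolic mRNA (median −0.45) and 23 lower and 1 higher in polysomes. With only the arrays of the groups compared 6 members were called in polysomes and 5 in cytosolic mRNA, and with array weights 12 and 13. Highly expressed genes as a whole also leaned this way: among the 4119 genes with the highest mean level, which held 49 members, 29.5% were lower and 8.06% higher in cytosolic mRNA, beside 31 lower and 0 higher among these members. For polysomes the shares were 22.2% lower and 13.9% higher, beside 25 lower and 1 higher. The narrower spread of the activated Foxp3+ arrays goes along with this, and its part was not tested.

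The calls were spread over roles. Of 36 initiation factors, 15 were lower and 1 higher in polysomes (median −0.60), and 24 were lower and 1 higher in cytosolic mRNA (median −0.93). All 7 members grouped as start codon and subunit joining factors had negative differences in both fractions, and 6 of the 7 were called in each. Eif1ad, placed in this group by symbol only, was among those called in both. Of the 18 ribosomal proteins, 12 were lower in polysomes (median −0.88) and 8 in cytosolic mRNA (median −0.59), with none higher. After cyclic loess 9 and 2 ribosomal proteins were lower, and the small subunit median in cytosolic mRNA was 0.13 in place of −0.16. Of 5 elongation factors 2 were lower in each fraction (Eef1d and Eef1e1).

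**Figure D3:**
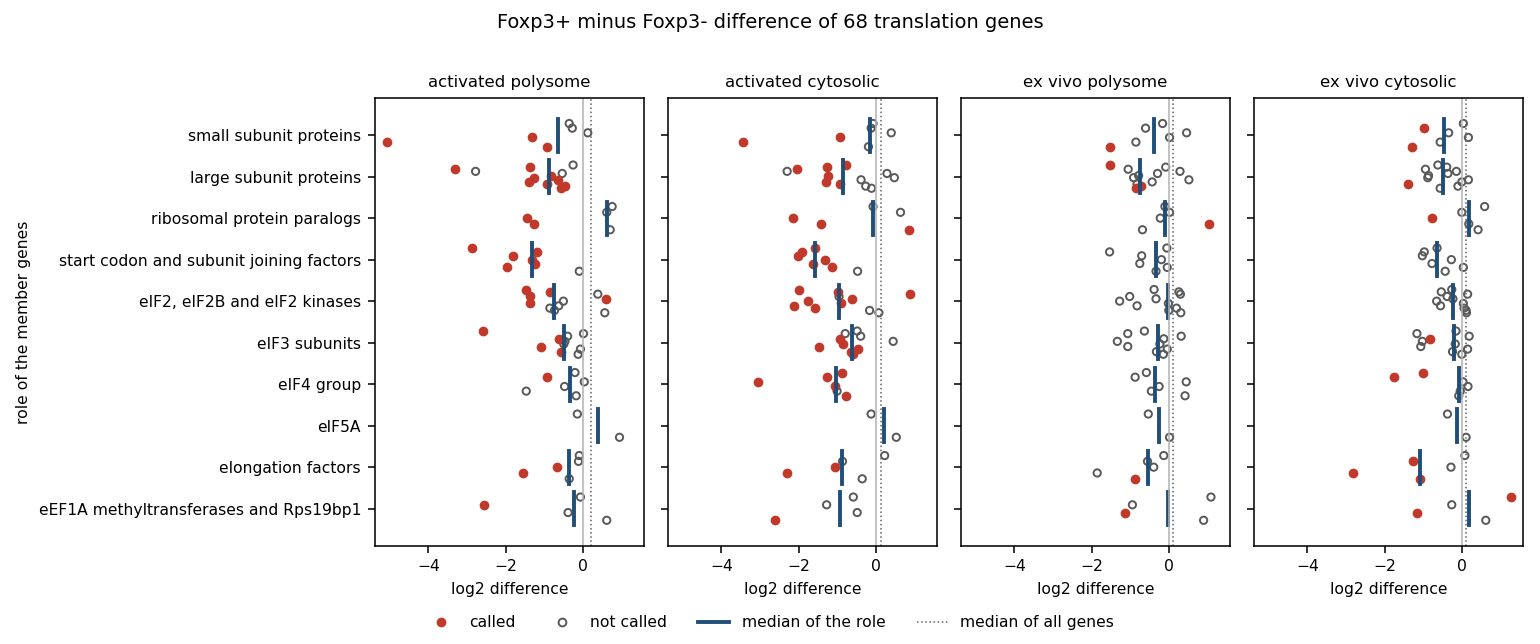
Foxp3+ minus Foxp3- log2 difference of all 68 genes by role, in activated polysome, activated cytosolic, ex vivo polysome and ex vivo cytosolic RNA, with calls at an adjusted p under 0.15 in red, the median of each role as a blue bar and the median of all genes as a dotted line. Most roles lie left of the dotted line in activated cells, with 32 and 37 lower calls, and there are 6 and 11 lower calls ex vivo.

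Rps6 had the largest difference of any member. In polysomes it had 3.86 and 4.20 on activated Foxp3+ arrays, against 8.96 and 9.24 on activated Foxp3- arrays. In cytosolic RNA it had 6.43 and 4.84, against 9.48 and 8.66. The arrays did not overlap in either fraction, and the differences were −5.07 ± 0.61 and −3.44 ± 0.61 (adjusted p = 0.000747 and 0.0062), called under each of the 21 alternative settings. Rpl15, a large subunit protein, had 7.58 and 5.54 in activated Foxp3+ polysomes, against 9.52 and 10.21 in activated Foxp3- polysomes. It differed by −3.31 ± 0.77 (adjusted p = 0.0169). Rpl14 differed by −1.37 ± 0.24 in polysomes and −1.26 ± 0.24 in cytosolic RNA (adjusted p = 0.00504 and 0.00892).

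Among initiation factors, Eif1a had 5.12 and 5.53 in activated Foxp3+ polysomes, against 8.20 and 8.16 in activated Foxp3- polysomes. Its polysome difference was −2.86 ± 0.40 (adjusted p = 0.00137), and the cytosolic one was −1.59 ± 0.40 (adjusted p = 0.0274). The other gene for eIF1A, Eif1ax, differed by −1.82 ± 0.33 in polysomes and −2.02 ± 0.33 in cytosolic RNA (adjusted p = 0.00583 and 0.00446). Eif3a had 7.50 and 8.62 in activated Foxp3+ polysomes, against 10.55 and 10.76 in activated Foxp3- polysomes. It differed by −2.59 ± 0.40 in polysomes (adjusted p = 0.00247) and was not called in cytosolic RNA. Eif4ebp3 was lower only in cytosolic RNA by the test (4.09 and 4.62, against 8.03 and 6.78; −3.05 ± 0.68, adjusted p = 0.0167). Eif2b5, the catalytic subunit of the eIF2 exchange factor, was likewise called only in cytosolic RNA (−2.12 ± 0.34, adjusted p = 0.00411).

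The few members that were higher in activated Foxp3+ cells had small differences and weak calls. Eif2b2, a regulatory subunit of the exchange factor, was higher in polysomes by 0.60 ± 0.25 (adjusted p = 0.118) and lower in cytosolic RNA (−0.63 ± 0.25, adjusted p = 0.122). Eif2ak2, the kinase PKR that double-stranded RNA activates, and Rps4l, a paralog of the small subunit protein Rps4, were higher in cytosolic RNA by 0.88 ± 0.32 and 0.85 ± 0.35 (adjusted p = 0.104 and 0.135). Of these, Eif2b2 and Rps4l lost the call under 11 and 12 of 21 settings, and Eif2ak2 under 6 of 20. Eif2ak2 was below the lowest array median on all arrays, with 3.76 and 4.84 in activated Foxp3+ cytosolic RNA, against 3.21 and 3.64. Eif2s2, Eif3e, Eif6, Eif5a and Eif4g3 were called in neither fraction.

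Levels of other cell markers differed between the activated subsets too. The summed stromal and endothelial level was 7.29 to 8.62 on activated Foxp3+ arrays and 6.74 to 7.40 on activated Foxp3- arrays. The summed level of 8 myeloid markers was 7.68 to 8.38 on the Foxp3+ arrays and 7.09 to 7.93 on the Foxp3- arrays, and 3 of these 8 lay below the lowest array median on every array. B cell markers summed to 6.69 to 7.83 on the Foxp3+ arrays, against 6.00 to 6.92 on the Foxp3- arrays. Of 6 T cell markers, 3 were higher and 0 lower in cytosolic RNA of activated Foxp3+ cells (13.8% and 12.2% of all genes). In polysomes 0 were higher and 0 lower (18.7% and 13.7%). The part of these in the subset difference was not tested.

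Ex vivo the lean was the same but fewer genes were called. In polysome-associated mRNA 1 member was higher in Foxp3+ cells (1.62% of all genes) and 6 were lower (2.25%), with a median of −0.34 against 0.09. In cytosolic mRNA 1 was higher (2.06%) and 11 lower (2.58%), with a median of −0.28 against 0.10. Rps9, Eef2 and Eef1aknmt were lower in both fractions. These counts depended on single arrays and on the fit: the cytosolic count of 12 became 0 without array 3 and 32 with only the arrays compared, and the polysome count of 7 became 1 without array 4 and 28 with array weights. After cyclic loess the polysome calls were 3 higher and 4 lower.

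Rps9, a small subunit protein, had 12.41 and 12.61 in ex vivo Foxp3+ cytosolic RNA, against 13.84 and 13.80 in ex vivo Foxp3- cytosolic RNA. The difference was −1.31 ± 0.24 there and −1.54 ± 0.24 in polysomes (adjusted p = 0.0261 and 0.0134). Rpl13a was lower in ex vivo Foxp3+ polysomes (11.77 and 11.81, against 13.26 and 13.39), with a difference of −1.53 ± 0.20 (adjusted p = 0.00532), the only ex vivo call among the named genes that stood under each of 21 settings. Eef2 had 13.01 and 12.70 in ex vivo Foxp3+ polysomes, against 13.69 and 13.79 in Foxp3- polysomes. It differed by −0.89 ± 0.23 there and by −1.09 ± 0.23 in cytosolic RNA (adjusted p = 0.105 and 0.0485). Eif4b and Eef1e1 were lower in cytosolic RNA, with differences of −1.76 ± 0.34 and −2.82 ± 0.61 (adjusted p = 0.0294 and 0.0502). Rps27l was the member higher in Foxp3+ polysomes (8.25 and 8.37, against 7.47 and 7.10; 1.02 ± 0.24, adjusted p = 0.0761), and after activation it was lower in Foxp3+ cells in both fractions. The ex vivo Foxp3+ arrays stood apart by the actin control (4.16 to 4.64, against 0.82 to 1.38 on ex vivo Foxp3- arrays), and the part of this in the ex vivo differences was not tested.

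The polysome and cytosolic fractions of each cell group were compared to ask which of these mRNAs were over- or under-represented among those carrying at least 3 ribosomes. The threshold was an adjusted p under 0.05, and few single genes passed it. In activated Foxp3+ cells 4 members were higher in polysomes (2.31% of all genes) and 3 lower (2.36%), or 6 and 2 after centring on array medians. In activated Foxp3- cells 2 were higher (2.36%) and 2 lower (1.52%). In ex vivo Foxp3+ cells 0 were higher (0.0303%) and 1 was lower (0.00607%), and in ex vivo Foxp3- cells 0 were higher (0.0303%) and 1 was lower (0.0303%). At an unadjusted p under 0.05 limma gave 2 higher and 19 lower members in ex vivo Foxp3+ cells, beside 773 of all 16475 genes in either direction. In ex vivo Foxp3- cells it gave 0 higher and 15 lower, beside 700 of all genes. With array weights 5 and 13 members were called in these cells, and the share of all genes under these weights is not given here.

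The 18 ribosomal proteins mostly had lower values in polysomes than in cytosolic RNA. Their median difference was −0.51 in activated Foxp3+, −0.23 in activated Foxp3-, −0.62 in ex vivo Foxp3+ and −0.47 in ex vivo Foxp3- cells, beside −0.05, −0.11, 0.00 and 0.01 for all genes. The sign was the same under each scaling except in activated Foxp3- cells, where cyclic loess gave 0.08. Both polysome arrays lay below both cytosolic arrays for 11 of 18 in activated Foxp3+ cells (21.6% of all genes), for 10 in activated Foxp3- cells (28.1%), for 12 in ex vivo Foxp3+ cells (21.6%) and for 12 in ex vivo Foxp3- cells (22.2%). Initiation factors had medians above that of all genes in activated cells (0.39 in Foxp3+ and 0.11 in Foxp3- cells) and near it ex vivo (0.08 and −0.06).

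Ex vivo, the pair of polysome arrays of each subset did not give the same distance. Array 6 lay below array 2 for 14 of 18 ribosomal proteins in Foxp3+ cells, and array 8 below array 4 for 17 of 18 in Foxp3- cells, while over all genes these shares were 53.9% and 46.4%. Taken singly against the cytosolic mean, arrays 2 and 6 had ribosomal protein medians of −0.53 and −0.77, and arrays 4 and 8 of −0.26 and −0.68. The cytosolic pairs were even (8 and 9 of 18). Each of the 4 arrays thus lay on the same side, at different distances.

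**Figure D4:**
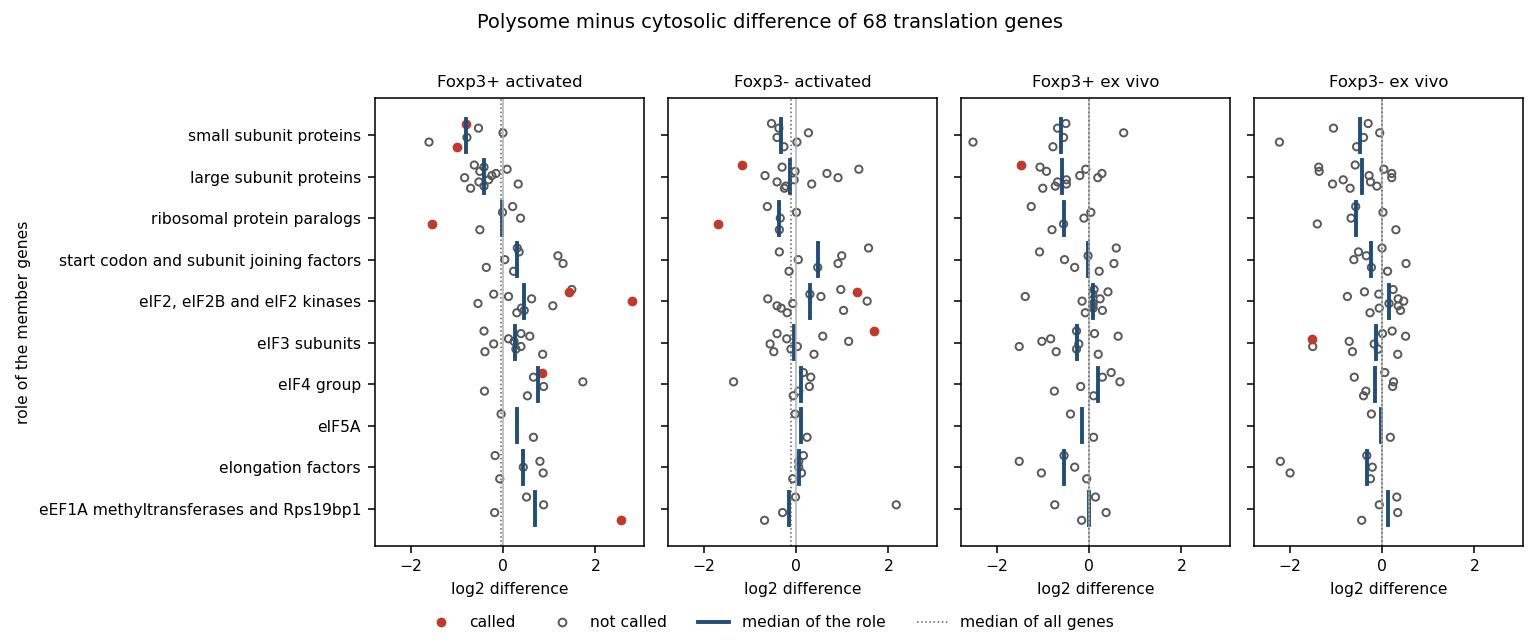
Polysome minus cytosolic log2 difference of the 68 genes by role in the 4 cell groups, with calls at an adjusted p under 0.05 in red, the median of each role as a blue bar and the median of all genes as a dotted line. Small and large subunit proteins lie mostly left of 0, with ribosomal protein medians of −0.51, −0.23, −0.62 and −0.47 from left to right.

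Among the genes called, Rpl13a had 11.77 and 11.81 in ex vivo Foxp3+ polysomes, against 13.43 and 13.12 in cytosolic RNA of these cells. It was lower in polysomes, with differences of −1.48 ± 0.20 there (adjusted p = 0.0366) and −1.16 ± 0.20 in activated Foxp3- cells (adjusted p = 0.0119). Eif3d, the eIF3 subunit that can itself bind the mRNA cap, had 9.39 and 9.82 in ex vivo Foxp3- polysomes, against 11.22 and 11.01 in cytosolic RNA. Its polysome level was below the cytosolic one by the test (−1.51 ± 0.20, adjusted p = 0.0272). Rps27l was lower in polysomes of activated Foxp3+ cells (6.38 and 6.69, against 7.99 and 8.16) and of activated Foxp3- cells (7.87 and 7.77, against 9.22 and 9.77), with differences of −1.54 ± 0.24 and −1.68 ± 0.24 (adjusted p = 0.00773 and 0.00606). Rps9 and Rps14 were also lower in activated Foxp3+ polysomes (−0.99 ± 0.24 and −0.80 ± 0.17). Of 22 alternative settings, the calls were lost in 19 for Rps9, in 4 for Rps14, in 13 for Rpl13a in ex vivo Foxp3+ cells and in 12 for Eif3d.

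Members called higher in polysomes were Rps19bp1 (2.55 ± 0.50 in activated Foxp3+ cells, adjusted p = 0.0181) and genes with symbols starting Eif, not all of which are initiation factors by function. Eif2ak1, the kinase of eIF2 that responds to heme, had 6.87 and 6.39 in activated Foxp3+ polysomes, against 5.19 and 5.19 in cytosolic RNA. It was higher by 1.44 ± 0.30 there and by 1.31 ± 0.30 in activated Foxp3- cells (adjusted p = 0.0232 and 0.039). Eif2b3, a subunit of the eIF2 exchange factor, was higher by 2.79 ± 0.66 in activated Foxp3+ cells (adjusted p = 0.0379), though its arrays were far apart (6.23 and 7.86 in polysomes, against 3.48 and 5.03). Eif4a3, a helicase of the exon junction complex, was higher by 0.84 ± 0.18 in activated Foxp3+ cells (adjusted p = 0.0275). Eif3a was higher by 1.68 ± 0.40 in activated Foxp3- cells (adjusted p = 0.043). Each of these calls was lost when only the arrays of that cell group entered the fit. Of 22 settings, they were lost in 10 for Eif2b3, 9 for Eif4a3, 12 for Eif3a, 2 for Rps19bp1, and 4 and 13 for Eif2ak1 in activated Foxp3+ and Foxp3- cells.

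Several members with differences of over 1 unit did not pass. Rps6 had 7.70 and 6.37 in ex vivo Foxp3+ polysomes, against 9.44 and 9.65 in cytosolic RNA, and in ex vivo Foxp3- cells 8.64 and 7.15, against 10.32 and 9.91. The groups did not overlap, with differences of −2.51 ± 0.61 and −2.22 ± 0.61. Eef1b2 differed by 0.80 and 0.06 in activated Foxp3+ and Foxp3- cells, and by −1.51 ± 0.37 and −2.20 ± 0.37 in ex vivo cells. Eif3h differed by 0.39 and 0.03 in activated cells, and by −1.51 ± 0.38 and −1.50 ± 0.38 ex vivo.

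Whether the polysome share of a member changed with activation was tested as a difference of differences. None passed an adjusted p under 0.05 in limma, in Foxp3+ cells (0 higher and 0 lower, beside 0.17% and 0.109% of all genes) or in Foxp3- cells (0 and 0, beside 0.091% and 0.0668%). At an unadjusted p under 0.05 in limma, 10 members were higher and 1 was lower in Foxp3+ cells, beside 1940 of all 16475 genes in either direction. In Foxp3- cells 14 were higher and 1 was lower, beside 1732 of all genes. Array weights also gave 0 calls in both. The median change was 0.37 over the members and −0.04 over all genes in Foxp3+ cells, and 0.31 and −0.11 in Foxp3- cells, with positive values for 51 and 46 of 68. The 18 ribosomal proteins had medians of 0.16 and 0.45, the first of which was −0.02 after cyclic loess. The elongation factors had medians of 0.75 and 0.49.

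Differential translation between subsets, the Foxp3+ minus Foxp3- difference of the polysome minus cytosolic difference, was called for 4 members with higher values in activated Foxp3+ cells (3.83% of all genes) and 2 with lower values (3.65%), at an adjusted p under 0.15. Those higher were Rps19bp1 (3.23 ± 0.71, adjusted p = 0.0424), Eif4ebp3 (3.08 ± 0.96, adjusted p = 0.13), Eif2b5 and Eif2b2. Those lower were Eif3a (−2.10 ± 0.56, adjusted p = 0.0832) and Rpl23 (−1.74 ± 0.54, adjusted p = 0.13). Of the 18 ribosomal proteins 16 had negative values, with a median of −0.28 beside 0.06 for all genes. With array weights 1 member was called, and after cyclic loess 2 were higher and 2 lower. Ex vivo no member passed an adjusted p of 0.3 in either direction (0 higher and 0 lower, beside 0% of all genes). At an unadjusted p under 0.05 limma gave 5 members and 193 of all genes ex vivo, and array weights gave 0 members.

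The response to activation differed between subsets for few members. In polysomes 1 member rose more, or fell less, in Foxp3+ cells (1.15% of all genes) and 5 rose less, or fell more (1.43%). In cytosolic RNA the counts were 0 (0.856%) and 3 (1.21%). Rps6 and Eif1a had the largest differences in polysomes, −4.21 ± 0.87 and −2.80 ± 0.56 (adjusted p = 0.031 and 0.0281), and lost these calls in 10 and 8 of 21 settings. Rps27l was called in both fractions, with −2.31 ± 0.35 in polysomes and −1.60 ± 0.35 in cytosolic RNA (adjusted p = 0.00852 and 0.0438), which were lost in 1 and 14 of 21 settings. Leaving out single arrays gave 0 to 8 calls in polysomes and 0 to 5 in cytosolic RNA.

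Other genes of the same pathways were tallied from lists. Of 6 genes of termination and recycling, 2 rose with activation in Foxp3+ polysomes, 2 in Foxp3+ cytosolic RNA, 3 in Foxp3- polysomes and 2 in Foxp3- cytosolic RNA, with 0 lower. Over all genes 14.7%, 16.9%, 14.1% and 13.6% rose in these 4 comparisons. Etf1, which reads stop codons, and Abce1, which splits the ribosome afterwards, were lower in activated Foxp3+ than in activated Foxp3- polysomes (−2.45 ± 0.34 and −2.55 ± 0.58, adjusted p = 0.00137 and 0.0153). Of 4 measured transcripts outside the members that are known to carry the tract, 3 rose in Foxp3+ and 2 in Foxp3- polysomes (14.7% and 14.1% of all genes). Among them the host gene of small nucleolar RNAs Gas5 rose by 4.95 ± 0.22 and 4.32 ± 0.22 there (adjusted p = 7.67e-07 and 8.01e-07). These are changes of level in polysomes, not of polysome share. Of 13 measured genes of tract-binding proteins and the mTOR complex, 8 rose in Foxp3+ and 6 in Foxp3- polysomes, and 0 and 1 fell, beside 14.6% and 16.4% of all genes that fell. Rptor, the scaffold of mTOR complex 1, rose by 4.71 ± 0.72 and 3.24 ± 0.72 (adjusted p = 0.000883 and 0.00602). Between activated subsets 2 of these 13 were higher and 3 lower in Foxp3+ polysomes, beside 18.7% and 13.7% of all genes. Of those lower, Larp4, a binder of polyadenylated mRNA, differed most (−3.40 ± 0.45, adjusted p = 0.00105).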

How the data were processed

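Log2 expression values were used as the authors deposited them: RNA was amplified with the Ovation Pico WTA kit, hybridised to Affymetrix arrays and processed by RMA (affy), with custom probe sets that each stand for 1 Entrez gene. Not given in the sources used here are the versions and whether 1 run covered all arrays. Without 64 control probe sets, 16475 genes entered the tests, 15780 of them with a symbol in the platform annotation. Low values were kept, and precision is limited by the number of arrays. The arrays of a group are called biological duplicates in the methods. Each p-value rests on 1 spread per gene, pooled over the duplicates of all 8 groups and adjusted by eBayes. It does not measure the spread of only the groups compared. That spread was unequal: the median gap between duplicates over all genes was 0.47 and 0.44 in activated Foxp3+ polysome and cytosolic RNA. It was 0.34 and 0.39 in activated Foxp3- cells and 0.17 to 0.23 ex vivo.

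One mean for each of 8 groups was fitted over all 16 arrays with lmFit and eBayes of limma 3.58.1 in R 4.3.3 (8 residual degrees of freedom). P-values are two-sided, with Benjamini-Hochberg adjustment across the genes tested. Calls took an adjusted p under 0.05 (activation, fraction, translation change and activation response), 0.15 (subsets in both states, and differential translation in activated cells) or 0.3 (differential translation ex vivo). Standard errors are limma's for the fitted difference. The fit was tested on simulated data that gave each gene the same spread in all groups. That test cannot show the effect of the unequal spread given above. The anota-RVM analysis of the methods was not run.

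Alternatives were a fit of only the groups compared, array weights, genes above the median mean, cyclic loess, centring on array medians, consecutive array numbers as a block, and leaving out each array. Named by rule were, for each comparison, up to 5 called members in each direction with the largest difference and no overlap of arrays (overlap was not asked of differences of differences), and a list of fixed members. Of that list Rpl22l1, Rplp0, Rpl3, Eef1a1, Eif1, Eif2s1 and Eif4a2 are not reported. Other members are named after their values were seen. The members and lists were chosen with earlier results of these data known. Start sequences are from RefSeq on GRCm38.p6. For 14 members no start was used: Rps4l, Eif6, Eif1a, Eef1akmt1, Eef1d, Rpl21, Eif3e, Eif3i, Rps14, Eif4ebp3, Rpl17, Eif2b3, Rpl8 and Eif3h. Python 3.11.15 with pandas 2.3.3 handled the sequences, and matplotlib 3.10.9 drew the figures.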

Additional observations from a re-analysis of the deposited data

Results flagged for a closer look

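Limma's test of the difference between subsets passed for 15 results, each given here as Foxp3+ minus Foxp3-. For the polysome minus cytosolic difference in activated cells (adjusted p under 0.15), values were 3.23 for Rps19bp1, 3.08 for Eif4ebp3, 1.48 for Eif2b5, 1.23 for Eif2b2, −1.74 for Rpl23 and −2.10 for Eif3a, with adjusted p-values of 0.0424 for Rps19bp1, 0.13 for Eif4ebp3, 0.144 for Eif2b5, 0.0991 for Eif2b2, 0.13 for Rpl23 and 0.0832 for Eif3a. The Rps19bp1 polysome arrays of activated Foxp3+ cells lay apart, at 10.61 and 8.54, against 6.90 and 7.14 in cytosolic RNA of these cells. In activated Foxp3- cells Rps19bp1 had 8.65 and 9.27 in polysomes, against 9.77 and 9.51 in cytosolic RNA. Rpl23 was near or under the array medians on all arrays (3.26 to 5.52).

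For the response to activation in polysomes (adjusted p under 0.05), values were −4.21 for Rps6, −2.80 for Eif1a, −2.31 for Rps27l, −1.93 for Eif5b, −1.17 for Rpl26 and 1.28 for Rpl13a. Limma's adjusted p was 0.031 for Rps6, 0.0281 for Eif1a, 0.00852 for Rps27l, 0.0321 for Eif5b, 0.0433 for Rpl26 and 0.0397 for Rpl13a. In cytosolic RNA the values were −3.23 for Rps19bp1, −1.60 for Rps27l and −1.38 for Rpl7l1, with adjusted p of 0.0464, 0.0438 and 0.049. Rpl26, a large subunit protein, fell in Foxp3+ polysomes (12.85 and 12.89 after activation, against 13.49 and 13.49 ex vivo) and rose in Foxp3- polysomes (13.58 and 13.47 after activation, against 13.16 and 12.79 ex vivo). All 15 were lost in some alternative setting. For differential translation, of 22 settings, it was 1 for Rps19bp1, 4 for Eif3a, 8 for Eif2b2, 14 for Eif4ebp3 and 17 for Eif2b5, and for Rpl23 it was 11 of 21. For the polysome response, of 21, it was 1 for Rps27l, 8 for Eif1a, 10 for Rps6, 11 for Eif5b and 14 for both Rpl13a and Rpl26. For the cytosolic response it was 13 for Rps19bp1 and 14 for both Rps27l and Rpl7l1. The part of array series in these differences cannot be told apart from that of subset.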

How the results depend on the processing

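Counts of called members depended on the fit. With only the groups compared they were 12 (32 in the fit of all arrays) for activation in Foxp3+ polysomes, 18 (29) in Foxp3+ cytosolic RNA, 6 (33) and 5 (39) for the activated subsets in polysomes and cytosolic RNA, 19 (7) and 32 (12) for the ex vivo subsets, 0 (7), 0 (1), 0 (4) and 3 (1) for the fractions of activated Foxp3+, ex vivo Foxp3+, activated Foxp3- and ex vivo Foxp3- cells, 0 (6) for differential translation and 1 (6) for the polysome activation response. With array weights they were 19 for activation in Foxp3+ polysomes, 12 and 13 for the activated subsets, 28 and 29 for the ex vivo subsets, 0, 5, 1 and 13 for the 4 fraction comparisons, 1 for differential translation and 3 and 2 for the activation responses in polysomes and cytosolic RNA. The response count in cytosolic RNA was 2 with only its groups. Among genes above the median mean there were 4 in the fraction comparison of activated Foxp3+ cells, 0 and 0 in the ex vivo ones, 4 and 1 in the activation responses. Cyclic loess gave 18 for the activated subsets in cytosolic RNA, 4 for differential translation, 0 for the fractions of ex vivo Foxp3+ cells and 0 for the cytosolic response (3).

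Leaving out 1 array gave 19 to 34 (lowest without 2 or 6) and 18 to 29 (1 or 5) for activation in Foxp3+ polysomes and cytosolic RNA, 21 to 37 (8) and 10 to 24 (3, 7 or 11) in Foxp3-, 21 to 40 (12) and 27 to 41 for the activated subsets, 1 to 11 (moved by 2, 4, 6, 8, 14 or 16) and 0 to 13 (moved by 1, 3, 5 or 7) for the ex vivo subsets, 4 to 10, 0 to 1, 2 to 6 and 0 to 1 for the fractions, 2 to 7 and 0 for differential translation in activated and ex vivo cells, 0 to 2 and 0 to 1 for the translation change in Foxp3+ and Foxp3- cells, and 0 to 8 and 0 to 5 for the responses. In the fractions 5, 10, 8 and 10 of the 16 single arrays moved the count by over 1.5 times, and 8 did so for differential translation in activated cells and 10 and 12 for the responses. Where this left 1 array in a group, it was assumed to vary like the others. The causes of these changes in count, among them the smaller number of arrays or genes in those fits, were not tested.

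Of 120 calls of named members, 38 were kept under every setting, and no named difference that was called changed sign. The pyrimidine run was at the start of 11.1% of members (95% exact interval 4.19 to 22.6%) and of 33.3% when its place could vary by 5 bases. Array numbers are not shared between groups. Consecutive numbers as a replicate block gave 8, 1, 5 and 1 calls for the fractions and 6 for differential translation in activated cells. Deviations of consecutive arrays correlated at 0.01, −0.00, 0.09 and 0.23, so that the numbers were not taken as pairs.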
